A study of Mus musculus with 8 samples.

Results

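The genes followed here encode proteins of the lipid droplet, the store of triglyceride inside the hepatocyte, together with the lipases, the lipase inhibitor and the fatty acid receptor that fill or empty it. They are 10 genes (Cidea, Cideb, Cidec, Plin2, Plin4, Plin5, Pnpla2, Pnpla3, G0s2 and Cd36) of 18316 that could be named on the array, and all 10 were among the 14142 genes well above background on at least 2 arrays. They were chosen by name with earlier results of these arrays known, and Cidec was selected on its place among the largest increases after hepatectomy. Their course over time is therefore given as a description without a test. The difference between the genotypes was not used to choose them and was tested.

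Liver RNA was measured on 8 one-colour arrays, 1 for each genotype and time. The Mxcre+ livers, in which Survivin (Birc5) was deleted according to the series design, and the Mxcre- livers, which were Survivin wild type, were each taken at 0, 24, 36 and 48 h after partial hepatectomy, an operation that removes part of the liver and drives the remaining hepatocytes to divide. Mx-driven Cre is switched on by interferon, here through poly(IC), and is active in liver and in blood-forming cells among others. All mice of both genotypes were of strain 129/SV/B6, had been irradiated and given bone marrow 2 months earlier, and had received poly(IC) 1 week earlier. The labels allow either sex without saying which for which array, give no age, and do not say whether an array held 1 animal or a pool. Times are those of the sample titles, while a protocol note in the labels places the analysis 1 week after the operation. The genotype of the transplanted marrow is not among the labels. With 1 array for each genotype and time there is no spread between replicate livers, and a small p in the limma fits reflects a difference that repeated from one time or genotype to the next.

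In the resting liver, triglyceride droplets are coated by perilipins, and their growth is governed by the CIDE proteins, which sit where droplets touch and pass lipid from the smaller to the larger one. Droplet lipid is released by the lipase ATGL (Pnpla2), which needs the coactivator CGI-58 (Abhd5) and is inhibited by G0s2. After partial hepatectomy in rodents the remaining liver takes up fatty acids released from adipose tissue and becomes transiently rich in lipid droplets before and while its hepatocytes divide. Many droplet genes are known targets of the PPAR nuclear receptors, which bind pairs of the half-site AGGTCA.

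The members were read by 11 probes, 1 for each gene except Pnpla2, which had 2. Levels are log2 intensities of the brightest probe with the 75th percentile of the array set to 0, so that 1 unit is a 2-fold difference, and levels of different genes are not comparable. All members were above background on 8 of 8 arrays except Cidea, which was above background on 6. The scanner's own error estimate for the members' spots was 10% to 16.2% of the signal, with the highest for Pnpla3. The 0 and 24 h arrays lay on 1 slide and the 36 and 48 h arrays on another, so that each genotype pair was within a slide, and for 36 and 48 h against 0 h the time and the slide cannot be told apart. In bulk tissue, fewer cells of a type and less RNA per cell cannot be told apart either.

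Birc5 checked the labels. Its level was -2.80, -3.49, -1.58 and -1.20 at 0, 24, 36 and 48 h in Mxcre+ liver, against -0.25, -0.55, 1.53 and 5.03 in Mxcre- liver, so it was lower in Mxcre+ liver in each pair. All 8 hepatocyte markers were above background on every array, and their mean level stayed between 7.17 and 7.50. Transcripts of 4 genes of the Y chromosome (Uty, Kdm5d, Ddx3y and Eif2s3y) split the arrays: 3 or 4 of the 4 were above background on both 24 h arrays and on the Mxcre- arrays of 36 and 48 h, and 0 of 4 on the Mxcre+ arrays of 0, 36 and 48 h and on the Mxcre- array of 0 h. Of the adipocyte markers, Adipoq was above background on the Mxcre- arrays of 36 h (-2.61) and 48 h (-0.52) and on no other array. These differences between livers run along with time and genotype, and their values are given again beside the results they touch.

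RefSeq promoters, from 250 bases before to 50 after a start site, were matched for 9 of the 10 members (11 promoters, with 2 each for Cidec and Plin5), and Cidea was not among them. Those of Cidec, Plin2 and Plin5 are shown, each at its start site farthest upstream, as examples of the members whose levels were higher on every array after hepatectomy than on both 0 h arrays; that of G0s2 is shown because its genotype difference had the smallest p. Sequences are from assembly GRCm38.p6, all on the minus strand of the assembly and printed 5′ to 3′ in the direction of the gene, with motif matches in capitals. Plin2 lies at chr4:86670010-86670309, Plin5 at chr17:56117499-56117798, Cidec at chr6:113435711-113436010 and G0s2 at chr1:193273139-193273438.
Plin2: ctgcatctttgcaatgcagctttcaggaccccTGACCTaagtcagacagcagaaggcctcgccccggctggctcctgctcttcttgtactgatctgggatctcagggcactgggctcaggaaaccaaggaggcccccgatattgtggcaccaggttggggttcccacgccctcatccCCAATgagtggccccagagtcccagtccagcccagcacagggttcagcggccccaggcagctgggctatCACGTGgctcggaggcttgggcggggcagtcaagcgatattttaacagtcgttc
Plin5: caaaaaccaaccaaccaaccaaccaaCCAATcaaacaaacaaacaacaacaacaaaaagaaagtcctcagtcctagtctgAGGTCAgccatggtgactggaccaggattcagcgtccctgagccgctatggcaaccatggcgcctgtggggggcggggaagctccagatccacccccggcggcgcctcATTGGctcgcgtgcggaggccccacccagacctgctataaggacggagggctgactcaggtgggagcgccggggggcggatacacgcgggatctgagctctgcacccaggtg
Cidec: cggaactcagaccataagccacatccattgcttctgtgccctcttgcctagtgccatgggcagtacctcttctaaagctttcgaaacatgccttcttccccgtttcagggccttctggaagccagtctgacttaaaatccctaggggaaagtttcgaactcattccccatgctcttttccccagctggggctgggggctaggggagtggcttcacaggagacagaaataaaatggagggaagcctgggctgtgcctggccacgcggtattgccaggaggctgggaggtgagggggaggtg
G0s2: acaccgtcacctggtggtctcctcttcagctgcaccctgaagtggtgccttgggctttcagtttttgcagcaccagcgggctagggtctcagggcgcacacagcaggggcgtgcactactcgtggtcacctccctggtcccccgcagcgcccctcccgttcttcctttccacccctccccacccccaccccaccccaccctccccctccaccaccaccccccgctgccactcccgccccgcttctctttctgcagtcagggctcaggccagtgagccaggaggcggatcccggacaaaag
The motifs named next were searched on both strands.

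The half-site AGGTCA was present in the promoters of Plin2 (first base at -218 from the start, on the opposite strand), Plin5 (at -170) and Cd36 (at -228, on the opposite strand), and in 16.3% of 32851 mouse promoters. A direct repeat of it with 1 base between, AGGTCANAGGTCA, the arrangement bound by PPAR with RXR, was in none of the members' promoters and in 0.0396% of all. The E-box CACGTG lay at -4 in Plin2 (7.15% of all promoters), and TATAAA at -172 in Cideb (13.6%). The CCAAT box, searched as CCAAT, was found in Plin2, Plin4, Plin5, Pnpla3 and Cd36 (37.4% of all). None of these motifs occurred in either Cidec promoter or in those of Pnpla2 and G0s2. The other Plin5 promoter also holds a half-site, 14 bases past its start, and its window overlaps the one shown. The probes were not assigned to start sites, and these windows say nothing of sites farther away.

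Among the CIDE genes, Cidec was many times higher after hepatectomy in both genotypes. Cideb was modestly lower on every later array except the Mxcre- one of 36 h. Cidea was also many times higher by the levels used here, but far less so with another background correction. Cidec (chromosome 6), whose protein Fsp27 fuses droplets into larger ones and which is low in lean resting liver, had log2 levels of -1.03, 5.12, 6.30 and 6.35 at 0, 24, 36 and 48 h in Mxcre+ liver. In Mxcre- liver they were -0.74, 5.31, 4.89 and 3.90. Each of the 6 later arrays was above both 0 h arrays by more than 4 log2 units. The fitted level was 68.6-fold higher at 24 h than at 0 h, 89.3-fold at 36 h and 64.5-fold at 48 h (6.10, 6.48 and 6.01 on the log2 scale). With normexp background correction on the median signals, a method that compresses dim signals, these differences were 4.76, 5.34 and 5.05. The fitted differences without normexp ranked 3, 1 and 12 among the increases of 14142 genes, which is the ground on which Cidec was selected. In order of level, the Mxcre+ arrays of 48 and 36 h came first, then the 24 h arrays of Mxcre- and Mxcre+ liver, then the Mxcre- arrays of 36 and 48 h, and last the 0 h arrays. The residual SD of the additive fit was 0.94. It is taken from the genotype pairs, includes any change of their difference with time, and is not a spread between replicates. Neighbours in the order of level differed by less than this SD except at 3 steps. The gap below the Mxcre+ array of 36 h and that above the Mxcre- array of 48 h were both 0.99, and the Mxcre- array of 48 h stood 4.64 above the 0 h array of its genotype.

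Cidea (chromosome 18), best known from brown fat and from fatty liver, was not above background at 0 h in either genotype. Its levels were -0.73, 0.87 and -0.61 at 24, 36 and 48 h in Mxcre+ liver, and -1.43, -1.60 and 0.73 in Mxcre- liver. Cidea was set against the lowest signal measured above background on the 0 h array of the same genotype. On that scale it was 21.6-fold higher at 24 h, 65.4-fold at 36 h and 23.5-fold at 48 h in Mxcre+ liver. In Mxcre- liver it was 8.02-, 7.09- and 35.8-fold higher. The signal used is the lowest of any probe on the array, so these folds are not firm lower bounds for Cidea. With normexp the fitted differences from 0 h were 0.31, 0.43 and 0.93 log2 units, far smaller than these folds. The genotypes crossed: the highest array was that of 36 h in Mxcre+ liver and the next that of 48 h in Mxcre- liver, where adipocyte markers were also highest. Cideb (chromosome 14), the form usual in healthy hepatocytes, with a part in VLDL lipidation, was 3.50, 2.95, 3.0 and 2.81 in Mxcre+ liver. It was 3.44, 3.14, 3.59 and 3.04 in Mxcre- liver. The Mxcre- array of 36 h was above both 0 h arrays, and every other later array was below both. The fitted level was 0.74-, 0.89- and 0.69-fold that of 0 h at 24, 36 and 48 h.

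**Figure D1:**
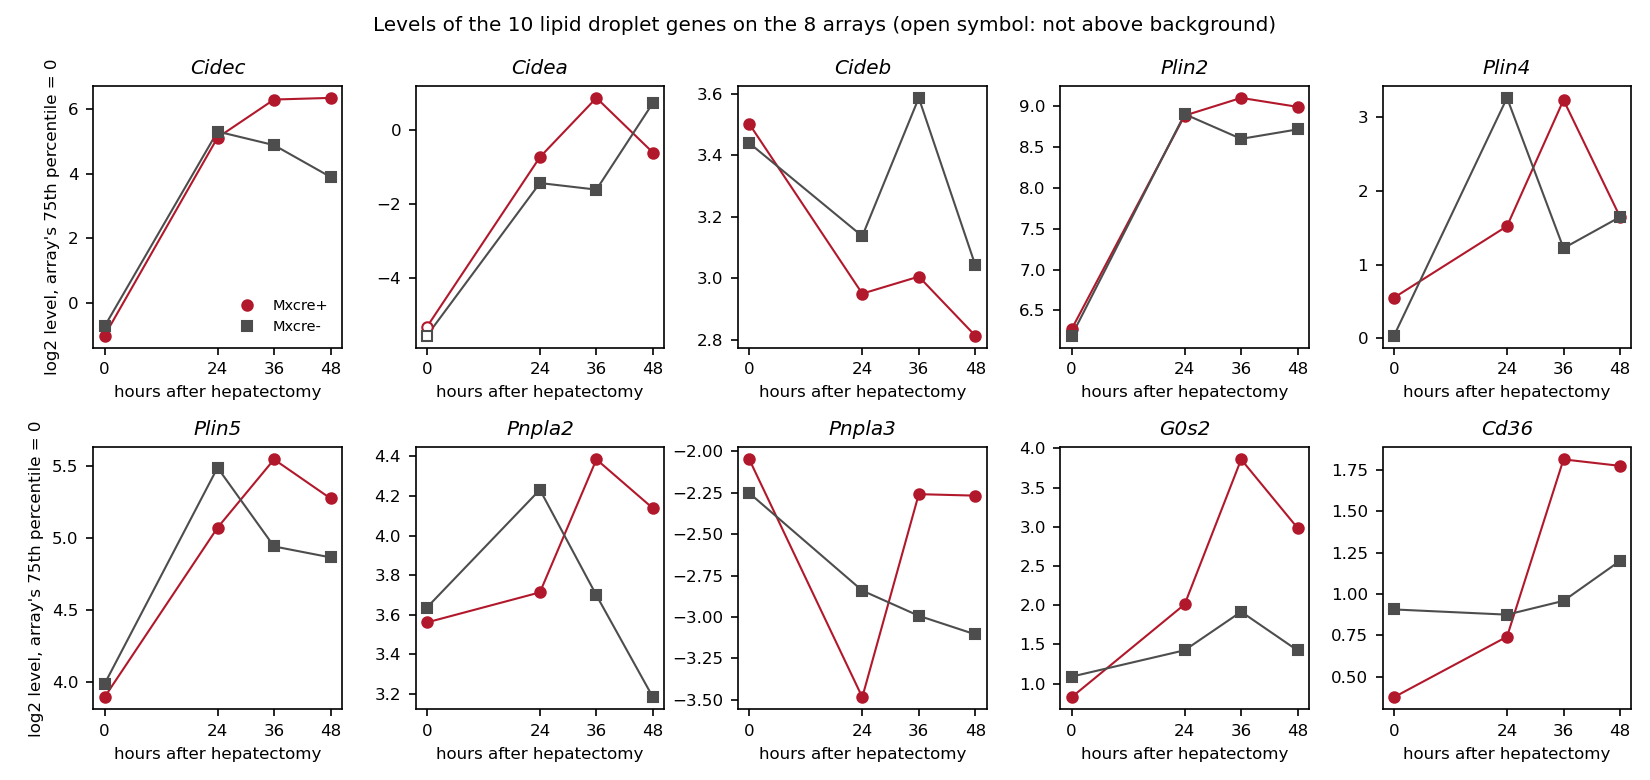
Log2 levels of the 10 genes (y axis, array's 75th percentile at 0, a scale of its own in each panel) against hours after partial hepatectomy (x axis) for Mxcre+ (red circles) and Mxcre- (grey squares) liver, 1 array a point. Cidec, Cidea, Plin2, Plin4, Plin5 and G0s2 lie above their 0 h points at every later time, and the Cidec and G0s2 lines of the genotypes separate at 36 and 48 h.

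All 3 perilipins among the members were higher on each later array than on both 0 h arrays. The other perilipins measured, Plin1 and Plin3, were not. Plin2 (chromosome 4), the perilipin that coats droplets in most cells and is stabilised by them, was 6.27, 8.89, 9.10 and 8.99 at 0, 24, 36 and 48 h in Mxcre+ liver. It was 6.19, 8.90, 8.60 and 8.72 in Mxcre- liver. The lowest later level, 8.60, stood well above the higher 0 h level of 6.27, and the fitted level was 6.34-, 6.15- and 6.16-fold that of 0 h at 24, 36 and 48 h. Its residual SD (0.16) was the smallest of the members. Plin5 (chromosome 17), a perilipin of oxidative tissues that holds droplets beside mitochondria, was 3.89, 5.07, 5.54 and 5.27 in Mxcre+ liver. It was 3.98, 5.49, 4.94 and 4.86 in Mxcre- liver. The fitted level was 2.53-, 2.47- and 2.19-fold that of 0 h at the 3 later times.

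Plin4 (chromosome 17), best known from adipocytes and muscle, was the least steady of these 3 perilipins. Its levels were 0.55, 1.52, 3.22 and 1.64 in Mxcre+ liver, and 0.04, 3.25, 1.22 and 1.64 in Mxcre- liver. The single highest array was that of 36 h in Mxcre+ liver and of 24 h in Mxcre- liver, so the peak lay at different times in the 2 genotypes. Its fitted level was 4.26-, 3.80- and 2.55-fold that of 0 h, with a residual SD of 1.09.

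Of the lipase genes, Pnpla2 (chromosome 7), which encodes ATGL, was 3.56, 3.71, 4.38 and 4.14 at 0, 24, 36 and 48 h in Mxcre+ liver. It was 3.64, 4.23, 3.70 and 3.18 in Mxcre- liver. The 48 h array of Mxcre- liver lay below both 0 h arrays, and the fitted level was 1.30-, 1.36- and 1.04-fold that of 0 h. The other probe of Pnpla2 gave a genotype difference of the same sign at 24, 36 and 48 h (-0.55, 0.55 and 0.83, beside -0.52, 0.69 and 0.95) and was near 0 at 0 h (0.02, beside -0.08). Pnpla3 (chromosome 15), a droplet protein whose human variant is tied to fatty liver and whose gene is known to be induced by feeding, was -2.05, -3.49, -2.26 and -2.27 in Mxcre+ liver. It was -2.25, -2.84, -2.99 and -3.11 in Mxcre- liver. All 6 later arrays were below both 0 h arrays, but those of 36 and 48 h in Mxcre+ liver were within the scanner's error of the Mxcre- array of 0 h, and the fitted level was 0.50-, 0.72- and 0.69-fold that of 0 h.

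G0s2 (chromosome 1), the inhibitor of ATGL, was 0.83, 2.01, 3.86 and 2.98 at 0, 24, 36 and 48 h in Mxcre+ liver. It was 1.09, 1.42, 1.92 and 1.42 in Mxcre- liver. All later arrays were above both 0 h arrays, and the 3 highest were the 3 later Mxcre+ arrays. Cd36 (chromosome 5), a receptor for long-chain fatty acids that is also found on macrophages and endothelium, was 0.38, 0.74, 1.82 and 1.78 in Mxcre+ liver. It was 0.91, 0.88, 0.96 and 1.20 in Mxcre- liver. The later arrays overlapped the 0 h arrays, and in Mxcre- liver the level moved by at most 0.29.

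In all, 6 members (Cidea, Cidec, Plin2, Plin4, Plin5 and G0s2) had all 6 later arrays above both 0 h arrays, as 18.1% of the tested genes did, and Pnpla3 had all 6 below, 2 of them by less than the scanner's error, as 22.4% did. Since the genes were chosen on this contrast, nothing is read from these counts. In Mxcre+ liver neither Y-linked genes nor Adipoq were above background at 0, 36 and 48 h, but other markers differed between these arrays. The adipocyte marker Cfd was above background at 36 h only (-4.00), and Plin1 at 0 and 48 h only. The mean level of 4 male-biased liver genes was 1.62, 0.81 and -0.16. In these livers Cidec was higher than at 0 h by 7.33 and 7.38 log2 units at 36 and 48 h, and Plin2 by 2.83 and 2.72. Plin5 was higher by 1.65 and 1.38, and G0s2 by 3.03 and 2.16. In Mxcre- liver, where Y-linked signal was present at 36 and 48 h and absent at 0 h, the same differences were 5.63 and 4.64 for Cidec, 2.41 and 2.53 for Plin2, 0.95 and 0.88 for Plin5 and 0.83 and 0.33 for G0s2. The 24 h differences lay within 1 slide, and there both genotypes differed from their 0 h array in Y-linked signal. Cidec was higher by 6.15 at 24 h in Mxcre+ liver and by 6.05 in Mxcre- liver.

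The comparison of Mxcre+ with Mxcre- liver asks whether loss of Survivin goes with a different level of these genes, as the series compares the 2 genotypes at each time. Cidec and G0s2 were higher in Mxcre+ liver at 36 and 48 h, by 1.42 and 2.46 log2 units for Cidec (2.67- and 5.48-fold) and by 1.94 and 1.56 for G0s2 (3.85- and 2.95-fold). At 0 h neither differed by more than 0.29, and at 24 h Cidec differed by -0.19 and G0s2 by 0.59. No member passed the test of the difference over the 4 times. For G0s2 it was 0.96 ± 0.40 (log2, SE, 4 pairs; positive in 3 of 4; limma adjusted p = 0.751), the smallest p of the members. For Cidec it was 0.85 ± 0.53 (positive in 2 of 4; limma adjusted p = 0.763). Of all tested genes 0% were called higher and 0% lower by limma, with 326 higher and 605 lower at an unadjusted p under 0.05 and a smallest adjusted p of 0.429. Cideb was the member with a negative difference (-0.23 ± 0.13, negative in 3 of 4 pairs; limma adjusted p = 0.761). The other 7 had differences between 0.13 (Plin5) and 0.52 (Cidea), with limma adjusted p from 0.761 to 0.942. In all, 9 of 10 members were positive, with a median of 0.24, beside 44.5% of all tested genes and a median of -0.02. Without the 36 h pair the differences of Cidea, Plin4, Plin5 and Cd36 were negative (-0.13, -0.41, -0.033 and -0.030).

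Within each time the differences have no test. At 36 h, 4 of 10 members were higher in Mxcre+ liver by 2-fold or more, against 2.24% of the 12736 genes above background on both arrays, and 0 were lower, against 2.32%. They were Cidea (5.56-fold), Plin4 (4.01-fold), G0s2 and Cidec, and 9 of 10 were positive with Cideb (-0.58) as the exception (median 0.80, beside -0.04 over all genes). At 48 h, Cidec and G0s2 were higher by 2-fold or more (2.5% of 12902 genes), and Cidea, at 2.53-fold lower, was the 1 member past that fold in the other direction (3.16%). Pnpla2 (0.95), Pnpla3 (0.84), Cd36 (0.58), Plin5 (0.41) and Plin2 (0.28) were also positive there, Plin4 was level (0.00) and Cideb was negative (-0.23).

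The earlier pairs looked different. At 24 h, 8 of 10 members were negative (median -0.19), Plin4 was lower in Mxcre+ liver by 3.33-fold (1.19% of 12865 genes were lower by 2-fold or more), and 0 members were higher by that much (0.793%). At 0 h, 5 were positive and 5 negative, with Cidea below background on both arrays, and 0 members passed 2-fold in either direction (1.18% of 13053 genes higher and 2.57% lower).

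**Figure D2:**
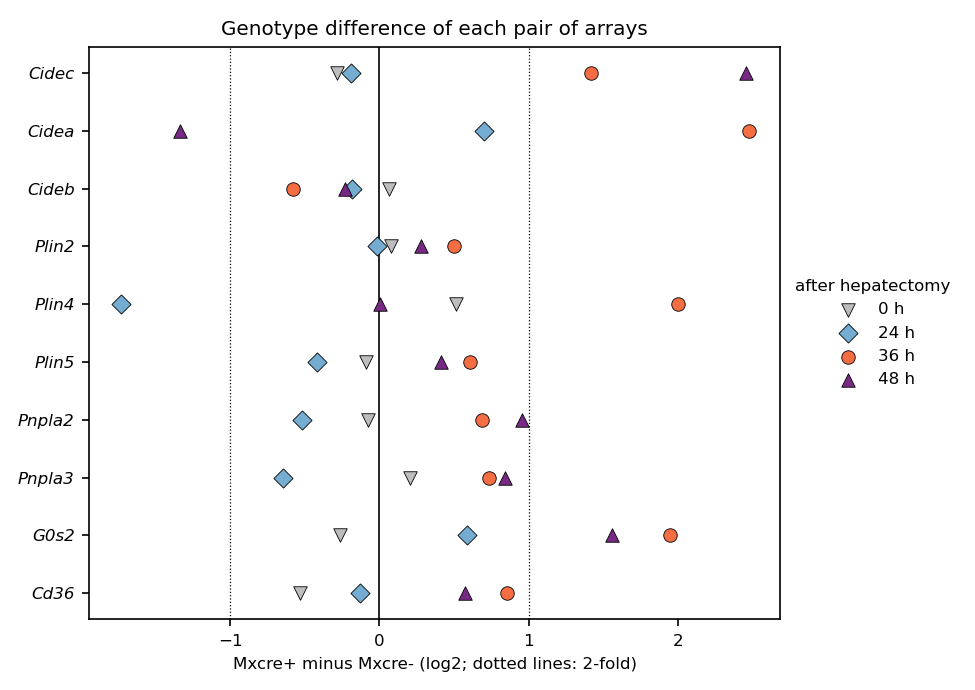
Difference between Mxcre+ and Mxcre- liver (x axis, log2) for each member (rows) at 0, 24, 36 and 48 h (grey, blue, orange and purple symbols), 1 pair of arrays a point, with dotted lines at 2-fold; Cidea at 0 h, below background on both arrays, is not drawn. The orange 36 h points lie right of 0 for every gene except Cideb, and the blue 24 h points lie left of 0 except for Cidea and G0s2.

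Whether the genotype difference after hepatectomy was other than at 0 h was tested with an added term, in which the 0 h pair stands alone. No member was called, where 0.156% of all genes were called higher and 0.0141% lower. The change was 1.63 ± 0.61 for G0s2 (limma adjusted p = 0.769), 1.52 ± 1.12 for Cidec (limma adjusted p = 0.914) and 0.96 ± 0.46 for Cd36 (limma adjusted p = 0.843). It was positive in 8 of 10 members (median 0.33), beside 49.1% of all genes (median -0.01).

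Other properties of the livers moved with these differences. The male-biased liver genes, of which 4 were measured, were lower in Mxcre+ liver in 4 of 4 at 24, 36 and 48 h (medians -1.75, -1.57 and -4.34) and higher in 4 of 4 at 0 h (median 0.30), so the 24 h pair, with Y-linked signal on both arrays, was not alike in them either. Xist was above background on all 8 arrays, at 2.32 to 4.37 on those with Y-linked signal and 5.10 to 5.49 on those without. Of 6 female-biased liver genes measured, 2, 3, 3 and 4 were higher in Mxcre+ liver at 0, 24, 36 and 48 h. The 36 and 48 h pairs differed in Y-linked signal, which the Mxcre- arrays had and the Mxcre+ arrays lacked. With the mean of the 4 Y-linked genes as a covariate the genotype difference of Cidec was -0.30 and that of G0s2 was 0.14. In Mxcre+ and Mxcre- liver that mean was -6.09 and -6.39 at 0 h, and -1.37 and -0.86 at 24 h. It was -6.47 and -1.56 at 36 h, and -6.63 and -0.76 at 48 h. The covariate therefore takes up most of the 36 and 48 h differences, and the estimate rests largely on the 0 and 24 h pairs. Without the Mxcre- arrays of 36 and 48 h, a choice made after seeing the data, the genotype difference rests on the 0 and 24 h pairs and was -0.24 for Cidec. Of the 6 adipocyte markers that could be fitted, 0 were higher in Mxcre+ liver at 36 h (median difference -1.09) and 1 at 48 h (median -2.86), namely Lep (0.72), chosen for naming after its values were seen. At 24 h 3 were higher, among them Cfd (1.63) and Plin1 (2.21), though Plin1 was not above background on the Mxcre- array. The medians likewise include markers that were not above background on an array of the pair. Of 9 on the list 8 were on the array, and 6 of these were above background on the Mxcre- arrays of 36 and 48 h, against 3 on the Mxcre+ arrays of the same times. Adipoq and Cfd, both made by fat cells, were -5.61 and -4.00 at 36 h in Mxcre+ liver and -2.61 and -0.36 in Mxcre- liver. At 48 h they were -7.09 and -5.34 in Mxcre+ liver, neither above background, and -0.52 and 1.39 in Mxcre- liver. The summed level of the list was 0.49 to 3.16 over the Mxcre+ arrays and 0.70 to 4.29 over the Mxcre- arrays, a sum that rests largely on the Fabp4 probe, whose level was higher on the later arrays of both genotypes. Cidec was highest on the Mxcre+ array of 48 h, and G0s2 and Cidea on that of 36 h. Adipoq was not above background on either of these arrays, while Cfd was above background on the 36 h one. At 48 h Cidea was higher on the Mxcre- array, where Adipoq and Cfd were both above background.

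Macrophage markers, like most members, had a negative difference at 24 h and a positive one at 36 h. Of 9 markers on the array, all above background on all arrays, 0 were positive at 0 h (median difference -0.73) and 0 at 24 h (median -0.50), against 9 at 36 h (median 0.95) and 7 at 48 h (median 0.31). Their summed level was 4.93 to 5.71 over the Mxcre+ arrays and 4.92 to 6.03 over the Mxcre- arrays. By 2-fold or more, 1 marker was lower in Mxcre+ liver at 0 h, 1 was lower at 24 h and 3 were higher at 36 h. Clec4f, a marker of Kupffer cells, was not among them, with a difference of less than 1 log2 unit in each pair. Beyond these values, the part of sex, fat tissue and macrophages in the members' differences was not tested.

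**Figure D3:**
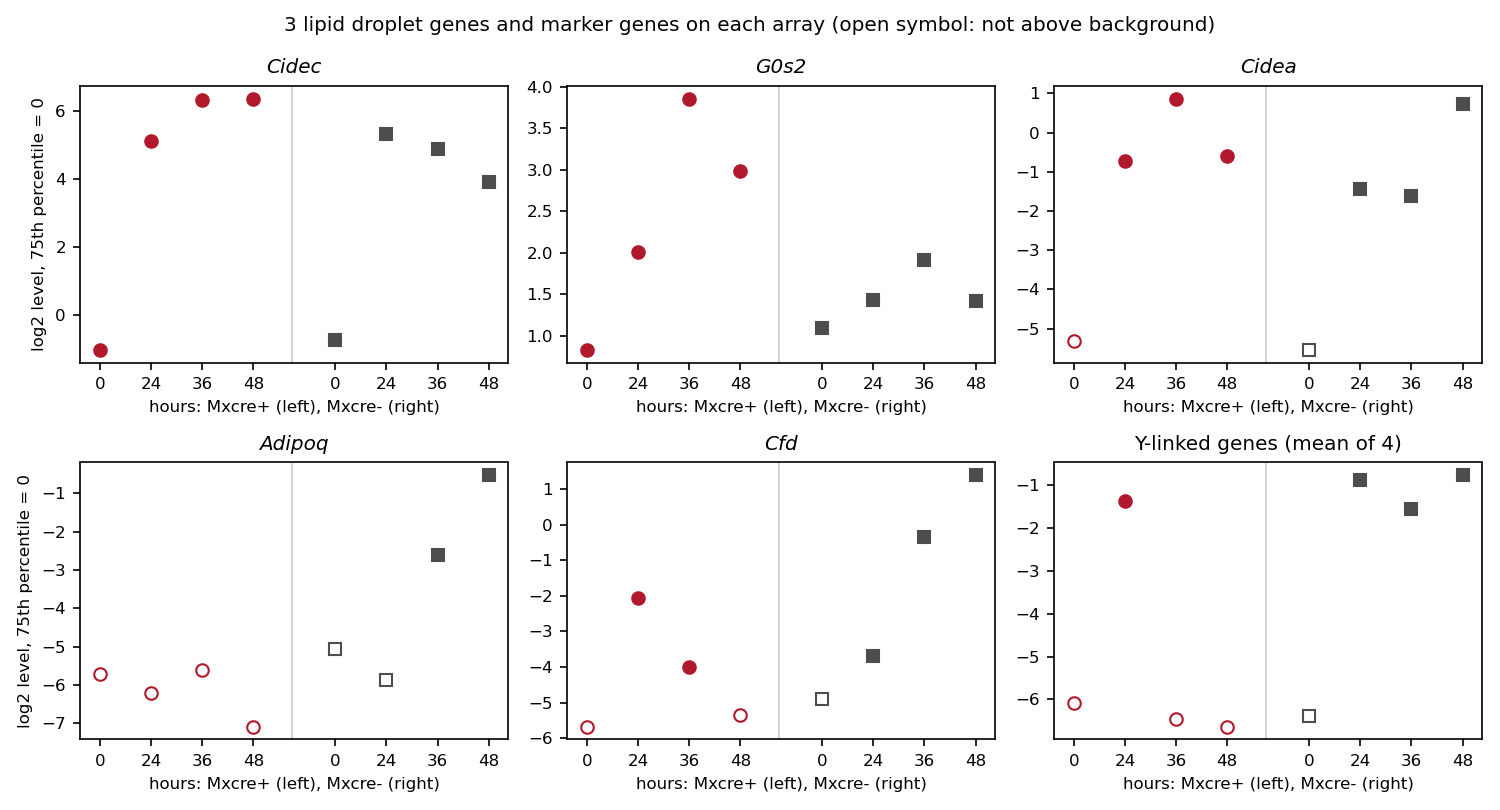
Log2 levels (y axis, array's 75th percentile at 0) of Cidec, G0s2 and Cidea and of the adipocyte genes Adipoq and Cfd and the mean of 4 Y-linked genes on each array, by hours after hepatectomy within Mxcre+ (left, red) and Mxcre- liver (right, grey); open symbols were not above background. Adipoq is above background on the Mxcre- arrays of 36 and 48 h, where Cidec and G0s2 are lower than on the Mxcre+ arrays of those times.

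The members did not all share one course. Pearson's r with Cidec over the 8 arrays was 0.98 for Plin2 and 0.97 for Plin5, but the 0 h arrays lie apart and carry much of it. Over the 6 later arrays it was 0.90 for Pnpla2, 0.83 for G0s2, 0.81 for Plin2, 0.78 for Plin5, 0.77 for Pnpla3 and 0.65 for Cd36. It was 0.42 for Plin4, 0.00 for Cidea and -0.40 for Cideb. Among 747 genes whose levels spanned at least 3 log2 units, those outside the members most like Cidec over the 8 arrays were Slc52a3, a riboflavin transporter (r = 0.99), Enc1 (0.99), the basement membrane gene Nid1 (0.99), the activin subunit Inhbb (0.99) and the TWEAK receptor Tnfrsf12a (0.99). Over the 6 later arrays their r was 0.99, 0.96, 0.88, 0.82 and 0.84 in that order. Slc52a3 was -0.81, -0.31 and -0.19 at 24, 36 and 48 h in Mxcre+ liver and -0.71, -0.82 and -1.16 in Mxcre- liver. Like Cidec, it was higher in Mxcre+ liver at 36 and 48 h and not at 24 h. It was picked for its likeness to Cidec on these same arrays, so the shared pattern is no separate result. The points share arrays and scaling, and these correlations are a description.

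Genes around the droplet were followed in 7 lists of 95 genes, 92 of them measured. They were drawn up with results of these arrays known and were not chosen on how they moved. At 24 h, 7 of the 92 rose against 0 h (7.61%, where 4.43% of all genes were called higher) and 13 fell (14.1%, where 5.26% were). At 36 h, 12 rose (13.0%, beside 7.83%) and 8 fell (8.70%, beside 8.64%), and at 48 h, 7 rose (7.61%, beside 8.12%) and 12 fell (13.0%, beside 9.6%). Called here means a limma adjusted p under 0.05 over all genes. Of these 20, 20 and 19 calls, 0, 1 and 3 held with normexp and 11, 12 and 14 with no filter on dim genes. With the mean of all probes of a gene 17, 16 and 15 held, and all signs were the same under these settings. Without the Mxcre- arrays of 36 and 48 h all signs were also the same, but the 24 h estimates cannot change there. That setting leaves 1 array at 36 h and 1 at 48 h, too few to judge the calls. Hilpda, Fabp4, Fabp2, Agpat3, Apobec1 and Insig2 were called higher at all 3 times, and Ces1d, Lipc, Dgat2, Slc27a5, Srebf1, Mlxipl and Cebpa lower at all 3. Agpat3 and Apobec1 were called at none of the times with the mean of all probes, nor were Hilpda and Apobec1 with no filter on dim genes. For the genotype difference and for its change after hepatectomy 0 of 92 were called (smallest limma adjusted p 0.751 and 0.603).

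Of 14 other lipid droplet proteins measured, 1 rose at each time. Hilpda, a hypoxia-inducible droplet protein that inhibits ATGL, was -0.91, 2.04, 3.09 and 2.26 at 0, 24, 36 and 48 h in Mxcre+ liver and -0.81, 2.72, 1.23 and 1.78 in Mxcre- liver. All its later arrays were above both 0 h arrays, and it rose 9.46-, 8.12- and 7.39-fold (limma adjusted p = 0.0424, 0.0394 and 0.0397). Acsl3, an acyl-CoA synthetase of nascent droplets, fell 2.17-fold at 24 h (limma adjusted p = 0.0352), and the droplet-bound dehydrogenase gene Hsd17b11 fell 2.13-fold at 24 h and 1.73-fold at 48 h (limma adjusted p = 0.0359 and 0.0495). Plin1, the perilipin of fat cells, was above background on 6 arrays and highest on the Mxcre- array of 48 h (-2.12).

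Of 10 other neutral lipid hydrolases measured, 2 fell at 24 h, 2 at 36 h and 3 at 48 h, and 1 rose, at 36 h. The hepatic carboxylesterase Ces1d, also known as triacylglycerol hydrolase, fell 4.21-, 3.21- and 6.0-fold (limma adjusted p = 0.0171, 0.0162 and 0.003). Lipc, hepatic lipase, fell 3.41- and 3.71-fold at 24 and 36 h (limma adjusted p = 0.0202 and 0.017), and Ces1f fell 5.64-fold at 48 h (limma adjusted p = 0.0352). The gene that rose was Abhd5, the coactivator of ATGL, at 1.66-fold at 36 h (limma adjusted p = 0.0264); over all its probes it was 1.36-fold higher (limma adjusted p = 0.0689).

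In triglyceride assembly, Agpat3, an acyltransferase of glycerolipid synthesis, rose 2.05-, 2.07- and 2.13-fold by its brightest probe (limma adjusted p = 0.0244, 0.0207 and 0.0142). Over all its probes it was 1.38-, 1.73- and 1.39-fold higher and not called (limma adjusted p = 0.292, 0.0961 and 0.247). Lpin3, a phosphatidate phosphatase, rose 2.31-fold at 24 h (limma adjusted p = 0.0372). Dgat2, which makes triglyceride from diglyceride, fell 2.39-, 1.99- and 2.67-fold (limma adjusted p = 0.0244, 0.0284 and 0.0136), and Acsl1, an acyl-CoA synthetase, fell 1.61- and 1.65-fold at 24 and 48 h (limma adjusted p = 0.0373 and 0.025), calls that were lost over all its probes (limma adjusted p = 0.13 and 0.0731). Of 15 measured, 2 rose at 24 h, 1 at 36 h and 1 at 48 h, while 2, 1 and 2 fell at those times.

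Among 11 genes of fatty acid uptake and binding, 2 rose and 1 fell at each time. Fabp4, a fatty acid binding protein of fat cells, endothelium and macrophages, rose 6.96-, 7.34- and 9.57-fold (limma adjusted p = 0.0179, 0.0129 and 0.0039). It is also on the adipocyte list, and its highest array was the Mxcre- one of 48 h (3.97). Its lowest level on the 6 later arrays was 2.85, against 0.15 and 0.42 on the 0 h arrays. The part of fat tissue in this rise was not tested. Fabp2, the intestinal type of fatty acid binding protein, rose 2.79-, 5.61- and 4.54-fold (limma adjusted p = 0.0262, 0.0162 and 0.01), and Slc27a5, a bile acid and fatty acyl-CoA ligase, fell 2.84-, 3.65- and 3.72-fold (limma adjusted p = 0.0217, 0.0162 and 0.0088).

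In lipoprotein export (7 measured), Apobec1, which edits Apob mRNA, rose 2.54-, 2.43- and 2.45-fold (limma adjusted p = 0.0482, 0.0424 and 0.0385). At 36 h Mttp, which loads lipid onto apolipoprotein B, rose 1.54-fold, and Apoc3, an inhibitor of lipoprotein lipase, fell 1.59-fold (limma adjusted p = 0.0399 and 0.0484). Of 15 regulators, 1 rose at each time, and 4 fell at 24 h and 3 at 36 and at 48 h. The one that rose was Insig2, which holds SREBP in the endoplasmic reticulum, at 5.32-, 3.34- and 2.84-fold (limma adjusted p = 0.0206, 0.0246 and 0.0248). Srebf1, the lipogenic SREBP gene, fell 4.84- and 3.20-fold at 24 and 36 h (limma adjusted p = 0.0206 and 0.0242). Mlxipl, which encodes ChREBP, fell 3.28-, 4.11- and 3.47-fold (limma adjusted p = 0.031, 0.022 and 0.0196), and Cebpa, a transcription factor of mature hepatocytes, fell 2.84-fold at 48 h (limma adjusted p = 0.0171).

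Pparg, whose forced expression in mouse liver is known to induce Cidec, had the smallest adjusted p of the 92 for a changed genotype difference. Its level was 0.60, 1.21, 1.56 and 1.82 at 0, 24, 36 and 48 h in Mxcre+ liver, against 1.28, 0.98, 1.11 and 1.05 in Mxcre- liver. The order of the genotypes turned between 0 h and the later times, with a change of 1.16 ± 0.30 that was not called (limma adjusted p = 0.603). With normexp the change was smaller, at 0.44, and also not called. Of 20 genes of fatty acid oxidation, 19 had a positive genotype difference (median 0.38), beside 44.5% of all tested genes, and 0 were called. At 0 h 19 of 20 were already positive (median 0.36), and the changed difference after hepatectomy was positive in 7 of 20 (median -0.08). The largest difference over the 4 times was that of Fgf21, a hepatic hormone of fasting and stress, at 1.28 ± 0.75 (limma adjusted p = 0.761). It was -2.72, 1.70, 2.66 and 3.05 in Mxcre+ liver, against -1.92, 1.48, 0.33 and -0.33 in Mxcre- liver, and thus was, as Cidec was, highest on the Mxcre+ arrays of 48 and 36 h. Against 0 h, the acyl-CoA thioesterase gene Acot1 rose 3.21-fold at 36 h and 4.58-fold at 48 h (limma adjusted p = 0.03 and 0.0161), and the carnitine carrier gene Slc25a20 rose 1.84-fold at 36 h (limma adjusted p = 0.0401). Acaa1b, a peroxisomal thiolase, fell 2.99- and 2.23-fold at 24 and 48 h (limma adjusted p = 0.0294 and 0.0357).

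**Figure D4:**
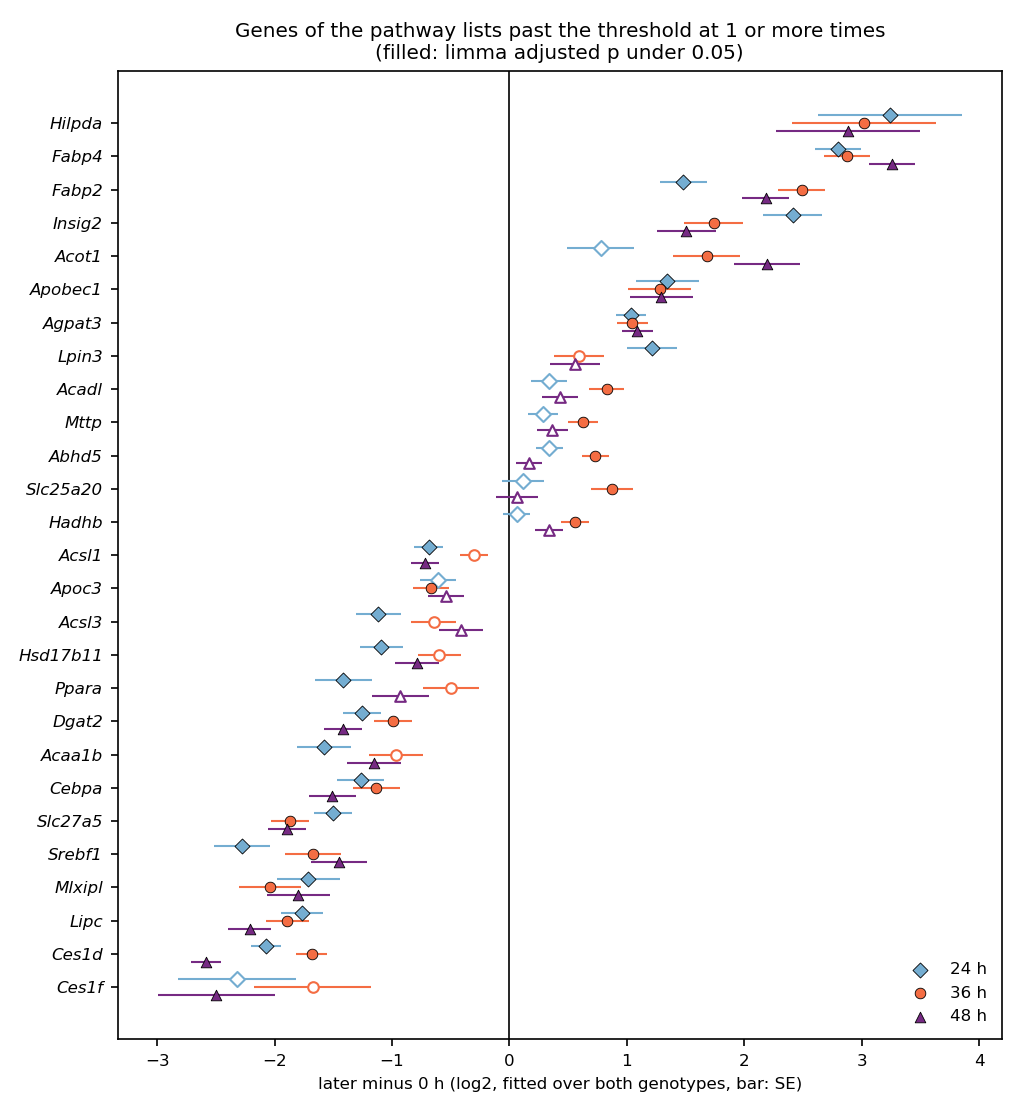
Difference from 0 h (x axis, log2, fitted over both genotypes, bars are SE) at 24, 36 and 48 h (blue, orange and purple symbols) for 27 of the 28 pathway genes called at 1 or more times; filled symbols passed a limma adjusted p of 0.05. Hilpda, Fabp4, Fabp2 and Insig2 stand at the top, and Ces1d, Lipc, Mlxipl and Srebf1 near the bottom.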

How the data were processed

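Mouse liver RNA was labelled with Cy3 and hybridised to 8 one-colour Agilent arrays. The deposited scanner files hold intensities; the processed one had been background-subtracted and spatially detrended but not scaled between arrays, per the file headers. The submitters' processing notes name Agilent Feature Extraction 10.7. The authors' deposited matrix holds log2 values of unstated scale. All its columns have the median 5.51, and their correlation with the scanner signal was 0.999 or more for the own array and 0.984 or less for the others. This matrix was taken to be quantile-normalised and served as an alternative.

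Levels are log2 processed intensity after subtraction of the array's 75th percentile, without control spots and spots flagged as outliers by the scanner. Of 41174 probes 41056 remained. The RefSeq table named 26839 of them as 18316 genes, and the brightest probe of a gene was used. Each array had 43379 spots, between 60.2% and 66.0% of them well above background, and the number of arrays limits the precision. The 14142 genes well above background on 2 or more arrays were fitted with limma 3.58.1 in R 4.3.3. The additive fit had time (4 levels) plus genotype, which leaves 3 residual degrees of freedom, and a further term for genotype after hepatectomy left 2. P-values were adjusted by Benjamini-Hochberg over all these genes. The fits were tested on simulated data. Since no label states separate animals, p covers the spread between these arrays only.

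The 10 members, the gene lists and the tests were chosen with earlier results of these data known. For each list and comparison the text names at most 2 genes a direction, those with the biggest change that passed, or the biggest change of all where none did and a result turns on it. Alternatives were normexp with an offset of 50 on the median spot signals (the mean signal is not used here), quantile scaling, the deposited matrix, other filters on dim genes, all probes of a gene, a Y-linked covariate and pairs of arrays left out. Whether the sex of the animals differed is not given in the labels. One gene of the pathway lists is counted but not reported by name.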

Additional observations from a re-analysis of the deposited data

How the results depend on the processing

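The genotype test called 0 genes under each of its 12 alternatives. Counts of genes called against 0 h at 24, 36 and 48 h were 1370, 2329 and 2507. They were 25, 23 and 79 with normexp on the median signals, 580, 990 and 1573 with no filter on dim genes, and 0, 0 and 0 without the Mxcre- arrays of 36 and 48 h, an alternative chosen after seeing the data that has fewer samples. The arrays of 0 and 24 h alone, again fewer samples, gave 0 at 24 h. Of the calls with normexp 72%, 87.0% and 87.3% were higher, beside 45.7%, 47.5% and 45.8%. Calls of a changed genotype difference numbered 24, against 1 with normexp, 3 over genes above background on all 8 arrays, and 0 without any one later pair. With the mean of all probes the pathway genes that lost a call were Acsl1, Agpat3 and Apobec1 at 24 h, Abhd5, Agpat3, Apobec1 and Cebpa at 36 h, and Acsl1, Agpat3, Apobec1 and Hsd17b11 at 48 h. No scaling moved the median of all genes by over 0.1.

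Among the members' genotype differences, none of them called, normexp gave -0.032 for Plin2, -0.069 for Plin4 and -0.16 for Plin5. The Y-linked covariate gave -0.30 for Cidec, -0.44 for Plin4, -0.24 for Plin5, -0.30 for Pnpla2, -0.20 for Pnpla3 and -0.34 for Cd36. Without the Mxcre- arrays of 36 and 48 h they were -0.24 for Cidec, -0.61 for Plin4, -0.25 for Plin5, -0.30 for Pnpla2, -0.22 for Pnpla3 and -0.33 for Cd36. The covariate estimates rest largely, and these wholly, on the 0 and 24 h pairs, so they are not separate checks. With 1 pair left out they ranged from -0.13 to 1.14 for Cidea, -0.41 to 0.84 for Plin4, -0.033 to 0.31 for Plin5 and -0.030 to 0.43 for Cd36, with the negative values without the 36 h pair. Those of G0s2 (0.14 to 1.36) and Cideb (-0.37 to -0.06) kept their sign under all alternatives. The changed difference under normexp was -0.66 for Plin2, -0.50 for Plin5 and -0.24 for Pnpla2. With 1 later pair left out it ranged from -0.56 to 1.35 for Cidea, -1.38 to 0.49 for Plin4 and -0.16 to 0.58 for Pnpla3. For Cidec it stayed between 0.90 and 2.22 and for G0s2 between 0.96 and 2.01 under all alternatives. The cause of these shifts was not tested. Signal near background limits the values of Cidea at 0 h. No paired analysis was possible because the labels give no shared replicate numbers; the time pairs are the fit itself.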
